A study of Mus musculus with 12 samples.

Results

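Bex1, Cela1, Pls3, Perp and Ptprg are 5 mouse genes that were selected on measured values of these arrays, as genes standing apart in bone marrow cells that carried wild-type isocitrate dehydrogenase 1 (IDH1). They are 5 of 15858 genes measured, and 8 of the 32533 probe sets in the deposited table. Ptprg has 4 probe sets and each of the others has 1. The arrays show that the 5 genes follow 3 different patterns. Perp and Pls3 were highest in the wild-type IDH1 cells by a wide margin, and Cela1 was highest there and intermediate in mutant IDH1 cells. Bex1 was high to a similar degree with either IDH1 construct. Ptprg was high in the empty vector cells and in no other group. The name "set apart in wild-type IDH1 cells" therefore fits Perp and Pls3. It fits Cela1 only in part, as Cela1 was also high in mutant IDH1 cells, and the data go against it for Bex1 and Ptprg.

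The starting cells were C57BL/6 marrow cells made immortal by HoxA9, which encodes a homeodomain protein that sustains self-renewal of myeloid progenitors. They were transduced with a retrovirus, transplanted into irradiated syngeneic recipients and recovered from the marrow 4 weeks later by sorting for green fluorescent protein (GFP), and each group has 3 arrays. The IDH1wt cells carried wild-type IDH1 in the vector pSF91 with an IRES-EGFP reporter. The IDH1mut cells carried mutant IDH1 in pSF91 with an IRES-GFP reporter, and the substitution is not named in the labels. The R-2HG cells carried the empty vector and their recipients received R-2HG, the product of mutant IDH1, at 1 mg per day for 4 weeks. The empty vector cells had neither an IDH1 construct nor R-2HG. HoxA9, retroviral transduction, irradiation of the host, transplantation and sorting are shared by all 4 groups. Where the retrovirus inserted was not measured and may differ between samples. For the R-2HG samples the labels conflict, as 1 field gives the IDH1mut vector while the title, source and construct fields give the empty vector and were followed. The labels do not say whether the 3 replicates of a group are separate mice or separate transductions, so errors and p-values measure only how far these samples spread, and that spread may be technical.

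IDH1 converts isocitrate to alpha-ketoglutarate. Leukaemia-associated mutants instead make R-2HG, which inhibits dioxygenases that use alpha-ketoglutarate, among them the TET enzymes that oxidise methylated cytosine in CpG dinucleotides. Wild-type IDH1 does not make R-2HG in quantity. DNA methylation was not measured here.

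The genes themselves have unrelated roles. Bex1 encodes a small, largely unstructured signalling adaptor of the BEX and TCEAL family, described in neurons as binding the p75 neurotrophin receptor, and human BEX1 has been described as silenced by promoter methylation in glioma. Cela1 encodes chymotrypsin-like elastase 1, a secreted serine protease of the exocrine pancreas. Pls3 encodes plastin 3, which bundles actin filaments in many solid tissues, whereas blood cells mainly use its relative L-plastin (Lcp1). Perp encodes a four-pass membrane protein that is a transcriptional target of p53 and a component of desmosomes. Ptprg encodes a receptor-type protein tyrosine phosphatase that binds contactins, and human PTPRG has been described as a growth-restraining phosphatase in myeloid leukaemia.

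Promoter windows of 300 bases, 250 before to 50 after the transcription start, were taken from RefSeq (GRCm38.p6), which matched 4 of the 5 genes. They are shown for 1 start per gene because mutant IDH1 is known for its effect on CpG methylation, and CG content is what a reader would compare between the 3 patterns. Each CG dinucleotide is in capitals.
Bex1, chrX:136215464-136215763, minus strand: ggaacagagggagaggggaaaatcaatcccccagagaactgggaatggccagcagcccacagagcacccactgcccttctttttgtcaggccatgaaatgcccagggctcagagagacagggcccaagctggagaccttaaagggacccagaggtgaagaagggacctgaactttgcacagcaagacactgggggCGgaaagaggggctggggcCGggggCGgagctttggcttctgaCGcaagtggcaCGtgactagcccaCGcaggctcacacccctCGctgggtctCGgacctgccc
Cela1, chr15:100687871-100688170, minus strand: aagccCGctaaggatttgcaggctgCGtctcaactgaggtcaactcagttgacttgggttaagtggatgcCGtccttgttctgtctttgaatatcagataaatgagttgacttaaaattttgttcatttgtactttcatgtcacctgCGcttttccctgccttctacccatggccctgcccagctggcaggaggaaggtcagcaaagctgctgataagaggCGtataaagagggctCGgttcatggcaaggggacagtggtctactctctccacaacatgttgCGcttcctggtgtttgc
Pls3, chrX:75875121-75875420, minus strand: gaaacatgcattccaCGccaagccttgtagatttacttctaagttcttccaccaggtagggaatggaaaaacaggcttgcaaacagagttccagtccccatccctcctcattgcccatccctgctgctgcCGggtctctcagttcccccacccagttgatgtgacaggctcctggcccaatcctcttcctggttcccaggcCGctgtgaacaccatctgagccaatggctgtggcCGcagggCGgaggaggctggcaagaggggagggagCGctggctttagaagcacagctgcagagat
Ptprg, chr14:11553303-11553602, plus strand: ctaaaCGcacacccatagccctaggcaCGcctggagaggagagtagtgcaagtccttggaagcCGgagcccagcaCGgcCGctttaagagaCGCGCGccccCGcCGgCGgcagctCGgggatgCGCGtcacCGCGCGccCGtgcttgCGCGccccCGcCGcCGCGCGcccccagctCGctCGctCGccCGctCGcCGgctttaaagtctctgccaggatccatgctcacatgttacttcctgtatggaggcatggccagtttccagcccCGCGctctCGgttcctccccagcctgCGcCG

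The Ptprg window above held 36 CG dinucleotides, more than 93.8% of the 32851 RefSeq promoter windows, whose median was 7. The Bex1 window held 8 CG and the Cela1 window 7, close to that median. The Pls3 window shown held 6, and its further starts held 3 and 6. A downstream start of Ptprg (chr14:12189693-12189992, plus strand) held 7. At least 1 CG occurred in 94.6% of all windows. TATAAA, searched on both strands, was found in the Cela1 window and in none of the other windows of the 4 genes, against 13.6% of all windows. Bex1 and Pls3 lie on chromosome X, Cela1 on chromosome 15, Perp on chromosome 10 and Ptprg on chromosome 14. The windows were compared for CG count and TATAAA alone, and Perp had no window, so they cannot show what separates the patterns. The high CG count set the first Ptprg start apart from the other windows shown.

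The deposited values are log2 expression values centred for each probe set, so that 0 is a reference close to the middle array and a difference of 1 is a 2-fold difference. They carry no absolute level, and levels of different genes cannot be compared. For the same reason the labelled cell type could not be checked against markers that should be present or at 0. Of the 12 arrays, R-2HG replicates 1 and 2 stood apart, with scores of 43.0 and 44.6 on the first principal component, against 13.4 for R-2HG replicate 3 and at most 0.49 for the other arrays. Results that involve the R-2HG group are therefore also given without these 2 arrays or array by array, a choice made after seeing the data. In RNA of bulk sorted cells, fewer cells of a type and less RNA per cell cannot be told apart.

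**Figure D1:**
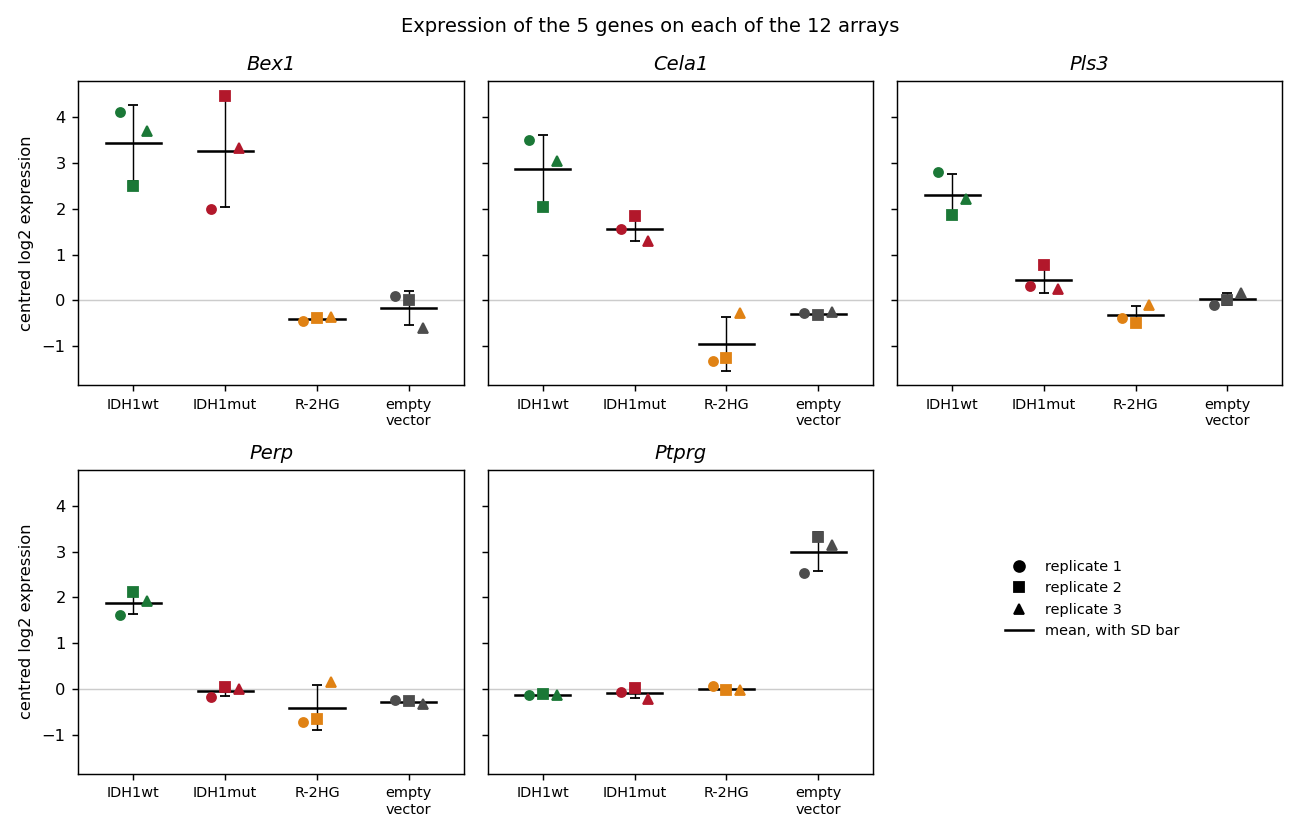
Centred log2 expression (y axis) of the 5 genes on each array, by group (x axis). Symbols are replicates, horizontal lines are group means and bars are SDs, n = 3. Perp, Pls3 and Cela1 are highest on the IDH1wt arrays, Bex1 is high on all 6 IDH1wt and IDH1mut arrays, and Ptprg is high on the 3 empty vector arrays alone.

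Perp, the p53 target, followed the name most closely. Its values were 1.62, 2.12 and 1.92 on the IDH1wt arrays, −0.17, 0.04 and 0 on the IDH1mut arrays, −0.72, −0.65 and 0.16 on the R-2HG arrays, and −0.23, −0.26 and −0.32 on the empty vector arrays. The IDH1wt arrays lay above all others, and the other 3 groups lay within 1 unit of each other. The lowest IDH1wt array was 1.46 above the highest of the other 9, the widest such gap of all 15858 genes. All 3 IDH1wt arrays lay above the other 9 for 351 genes, or 2.21%, and did so by at least 1 log2 unit for 2 genes, or 0.0126%, which are Perp and Pls3. The IDH1wt mean was 1.89 ± 0.26 and the empty vector mean −0.27 ± 0.05 (SD, n = 3 each). Perp differed by 2.16 ± 0.20 (SE of the fit) between IDH1wt and empty vector, the comparison on which the genes were chosen, so no test is given for it. Between IDH1mut and empty vector the difference was 0.23 ± 0.20.

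Pls3, the actin bundler, had the same shape with a small shift in IDH1mut. It measured 2.80, 1.86 and 2.22 on the IDH1wt arrays, 0.33, 0.78 and 0.25 on the IDH1mut arrays, −0.39, −0.49 and −0.09 on the R-2HG arrays, and −0.09, 0 and 0.17 on the empty vector arrays. The IDH1wt arrays were again clear of the rest, by 1.07, and the IDH1mut arrays lay just above the empty vector arrays without overlap. The difference from empty vector was 2.26 ± 0.21 in IDH1wt and 0.43 ± 0.21 in IDH1mut, with a 95% interval of −0.03 to 0.89 for IDH1mut. Directly compared, IDH1mut minus IDH1wt was −1.84 ± 0.21 for Pls3 and −1.93 ± 0.20 for Perp.

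Cela1, the elastase, was graded across the groups. Its values were 3.51, 2.04 and 3.04 on the IDH1wt arrays, 1.56, 1.83 and 1.30 on the IDH1mut arrays, −1.33, −1.26 and −0.28 on the R-2HG arrays, and −0.27, −0.33 and −0.26 on the empty vector arrays. Every IDH1wt array exceeded every IDH1mut array, but only by 0.21 at the closest, and every IDH1mut array exceeded every R-2HG and empty vector array. Cela1 was thus high with both constructs, and its gap over the 6 arrays without a construct was 1.56. The difference from empty vector was 3.15 ± 0.33 in IDH1wt and 1.85 ± 0.33 in IDH1mut, and IDH1mut minus IDH1wt was −1.30 ± 0.33.

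Bex1, the signalling adaptor, did not distinguish the constructs. It measured 4.10, 2.51 and 3.69 on the IDH1wt arrays, 2.00, 4.45 and 3.32 on the IDH1mut arrays, −0.45, −0.39 and −0.36 on the R-2HG arrays, and 0.11, 0 and −0.59 on the empty vector arrays. The IDH1wt and IDH1mut arrays overlapped, and all 6 lay above the R-2HG and empty vector arrays by at least 1.89, the widest gap of this kind of all genes. Such a separation of the 6 construct arrays from the other 6 was seen for 240 genes, or 1.51%, and by at least 1 log2 unit for 4 genes, or 0.0252%. Besides Bex1 and Cela1 these were Lrmda and Erdr1, named after their values were seen. IDH1mut minus IDH1wt was −0.18 ± 0.51, with an interval of −1.29 to 0.94, so a difference of up to about 1 log2 unit in either direction was not detectable. Among increases over empty vector Bex1 had rank 1 of all genes in IDH1wt (3.59 ± 0.51), the comparison that chose it, and rank 2 in IDH1mut (3.42 ± 0.51).

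The order of replicates was not the same for all genes. IDH1wt replicate 2 was the lowest of its group for Bex1, Cela1 and Pls3 and the highest for Perp. IDH1mut replicate 2 was the highest of its group for all 5 genes. For Perp (0.04 against 0 and −0.17) and Ptprg (0.02 against −0.06 and −0.21) it was so by little. For Bex1 the SD was 0.83 in IDH1wt and 1.23 in IDH1mut, against 0.05 in R-2HG and 0.38 in empty vector, and the fit assumes a single spread for all groups.

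**Figure D2:**
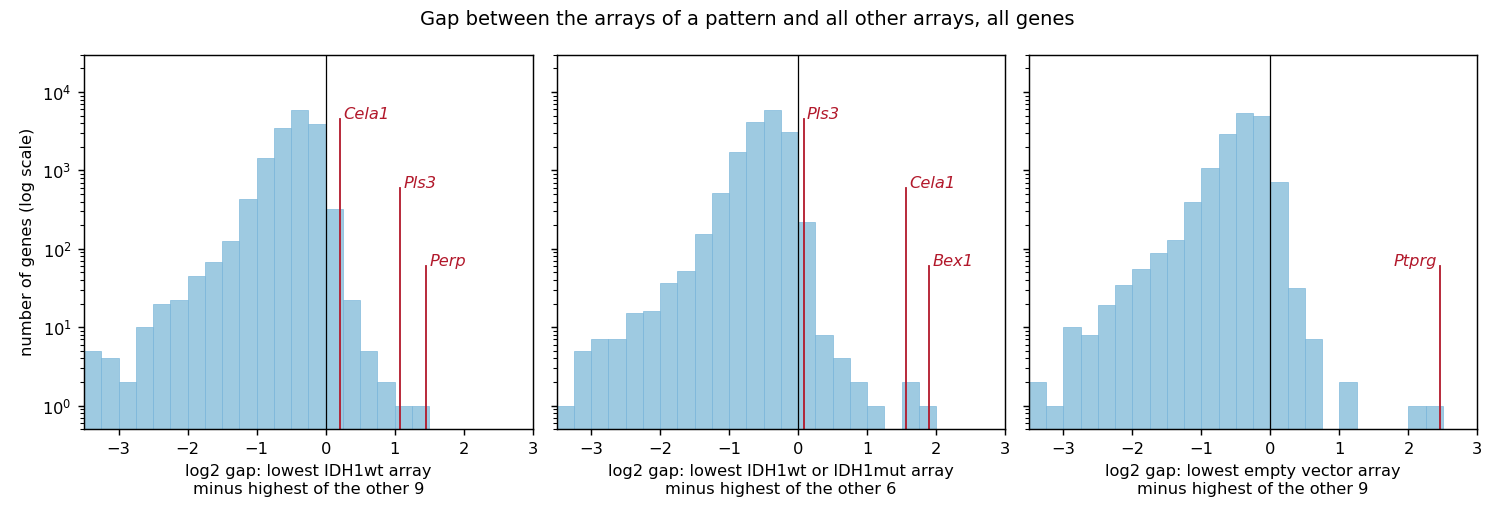
Number of genes (y axis, log scale) by the gap in log2 units (x axis) between the lowest array of a pattern and the highest remaining array, for the 15858 genes. Gaps under −3.5 are outside the range shown. Red lines mark the genes described. Perp and Pls3 have the widest gaps for IDH1wt, Bex1 and Cela1 for the 2 constructs together, and Ptprg for empty vector. The genes were chosen on IDH1wt against empty vector, so these gaps describe the choice and are no independent support.

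Ptprg, the receptor phosphatase, was set apart in the other direction and in the control. Its mean over 4 probe sets was −0.14, −0.10 and −0.13 on the IDH1wt arrays, −0.06, 0.02 and −0.21 on the IDH1mut arrays, 0.06, −0.03 and −0.02 on the R-2HG arrays, and 2.52, 3.33 and 3.14 on the empty vector arrays. The 9 arrays other than empty vector lay within 0.3 of each other, and the empty vector arrays exceeded them all by 2.46 or more. This was the widest gap of its kind among all genes, but the choice of Ptprg used the same empty vector arrays, so the rank is no independent support. All 3 empty vector arrays exceeded the other 9 for 751 genes, or 4.74%, and did so by at least 1 log2 unit for 4 genes, or 0.0252%, the others being Hspa1a, Hspa1b and Eya1. The difference from empty vector was −3.12 ± 0.16 in IDH1wt, −3.08 ± 0.16 in IDH1mut and −2.99 ± 0.16 in R-2HG. These 3 differences share the same 3 empty vector arrays, and R-2HG cells carried the same empty vector as the group they differ from. High Ptprg was thus not a feature of all cells with the empty vector, and low Ptprg was shared by cells with and without an IDH1 construct.

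Each Ptprg probe set showed this. Empty vector means were 3.40 at 1429691_at, 4.54 at 1434360_s_at, 1.59 at 1450122_at and 2.47 at 1456070_at. The means of the other 3 groups at these probe sets lay between −0.37 and 0.09. Probe sets with the suffix _s_at can match transcripts of more than 1 gene, but 1434360_s_at behaved like the rest.

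**Figure D3:**
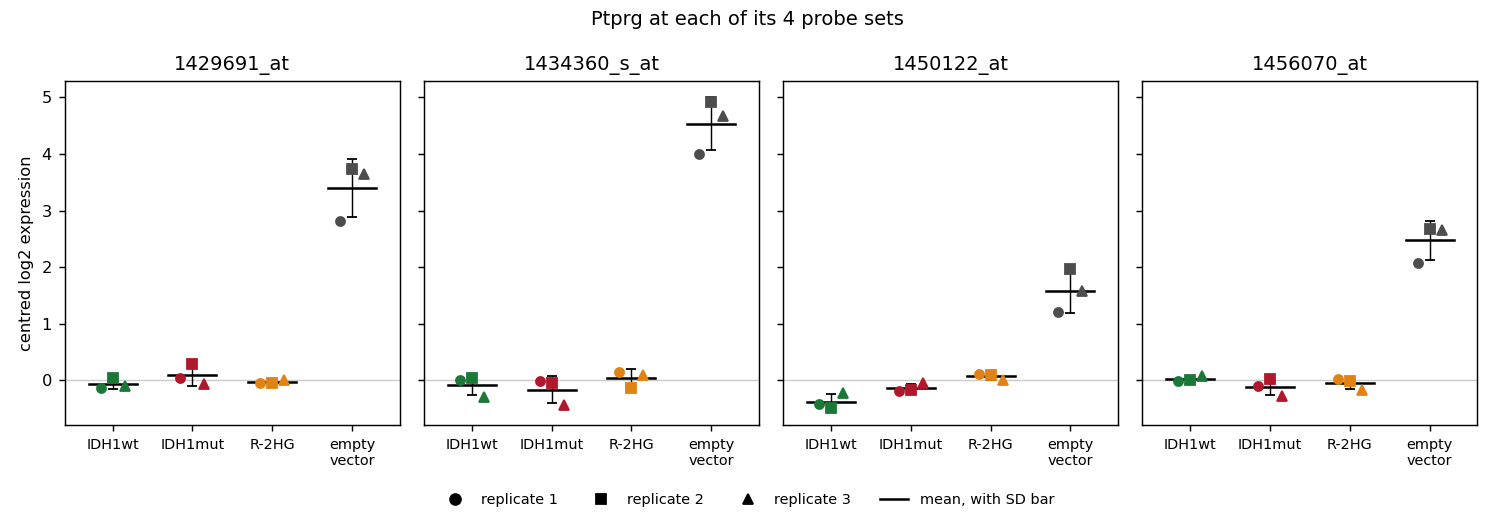
Centred log2 expression (y axis) at the 4 probe sets of Ptprg by group (x axis). Symbols are replicates, lines are means and bars are SDs, n = 3. Empty vector means run from 1.59 to 4.54, and at each probe set the 3 empty vector arrays lie above the other 9.

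Some stress genes were also high in empty vector. Of 25 genes known to respond to sorting, dissociation and heat, 10 were lower and 0 higher in IDH1wt than in empty vector by limma (adjusted p under 0.05), where 1.35% of all genes were called in either direction. Hspa1a, which encodes an inducible heat shock protein, measured −1.42, −0.77 and −1.33 on the IDH1wt arrays, −0.22, −0.82 and −0.18 on the IDH1mut arrays, 0.38, 0.32 and 1.70 on the R-2HG arrays, and 3.90, 3.91 and 3.77 on the empty vector arrays. The immediate early gene Egr1 was also lower, with an IDH1wt minus empty vector difference of −2.14 ± 0.19 (limma, adjusted p = 0.0001217). In IDH1mut 8 of the 25 were lower than in empty vector and 0 higher, where 22.6% of all genes were called, and in R-2HG 9 were lower and 2 higher, where 40.8% were called. The median of the 25 was 0, 0 and 0.16 on R-2HG replicates 1, 2 and 3, against 0.07 to 0.21 on the empty vector arrays. The heat shock genes of the same list that were not called were named after their values were seen. Of these, Hspb1, Hsph1, Dnajb1, Dnaja1 and Hsp90aa1 differed by −0.08 to −0.05 in IDH1wt against empty vector, and Hspa8 by −0.38 ± 0.14. The part of these genes in the Ptprg result was not tested.

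The comparison of IDH1mut with R-2HG was tested, as its differences are taken from no IDH1wt or empty vector array. The spread in the fit comes from all 12 arrays, and the genes were chosen with earlier results of these data known. The test is therefore not fully independent of the choice. The comparison asks which of the 5 genes differ between cells with mutant IDH1 and cells given its product. By limma with Benjamini-Hochberg adjustment over all genes, 3 of the 5 were called, all higher in IDH1mut, where 36% of all genes were called in either direction and 20.3% were higher. Bex1 was higher by 3.65 ± 0.51 (adjusted p = 0.000969), Cela1 by 2.52 ± 0.33 (adjusted p = 0.0007702) and Pls3 by 0.78 ± 0.21 (adjusted p = 0.01524), and for each of them the groups did not overlap. Perp differed by 0.37 ± 0.20, with an interval of −0.06 to 0.79 (limma, adjusted p = 0.1591). Ptprg differed by −0.09 ± 0.16, with an interval of −0.43 to 0.25 (limma, adjusted p = 0.6769), so a difference the size of that against empty vector lies outside the interval. None of its 4 probe sets was called, where 34% of single-symbol probe sets were (adjusted p = 0.3138 to 0.7571, limma).

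The Bex1 call was lost when limma's spread was fitted with a trend (3.65, adjusted p = 0.8999, against 0.0001018 to 0.0456 in the other alternatives). The calls of Cela1 and Pls3 lean on the R-2HG arrays. For Cela1, Pls3 and Perp, R-2HG replicates 1 and 2 lay below all empty vector arrays, while replicate 3 lay within their range or, for Perp, above it. For Bex1 the 3 R-2HG arrays were within 0.1 of each other. Without R-2HG replicates 1 and 2, the difference was 3.61 for Bex1 (limma, adjusted p = 0.0456), 1.84 for Cela1 (adjusted p = 0.05054), 0.54 for Pls3 (adjusted p = 0.3218) and −0.20 for Perp (adjusted p = 0.5213). R-2HG replicate 3 is then assumed to vary like the other groups. The Pls3 call was also lost without R-2HG replicate 1, without R-2HG replicate 2 or without IDH1mut replicate 2. Marker genes moved in the same comparison, where 20.3% of all genes were higher in IDH1mut than in R-2HG. Of the markers, 10 of 12 erythroid, 8 of 13 B cell and 7 of 12 stem and progenitor genes were higher, and none of these markers was lower. Other lists were mixed or moved less. T and NK cell markers had 4 of 13 higher and 3 lower, and megakaryocyte and platelet markers 2 of 10 higher and 2 lower. Stromal, endothelial and epithelial markers had 4 of 18 higher and 3 lower. Monocyte and macrophage markers had 0 of 11 higher and 2 lower, and neutrophil and dendritic cell markers each 2 of 11 higher and 0 lower. Mast cell, basophil and eosinophil markers had 2 of 11 higher and 1 lower. Erythroid markers had a median of −1.55, −1.89 and 0 on R-2HG replicates 1, 2 and 3, against 0.16 to 0.41 in IDH1mut. For B cell markers these medians were −0.24, −0.22 and −0.15, against 0.31 to 1.24. For stem and progenitor markers they were −0.56, −0.47 and −0.08, against −0.12 to 0.28. Markers of mast cells, basophils and eosinophils had a median of −2.12 and −2.34 on R-2HG replicates 1 and 2, against 0.28 on replicate 3. The part of these markers in the results was not tested.

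**Figure D4:**
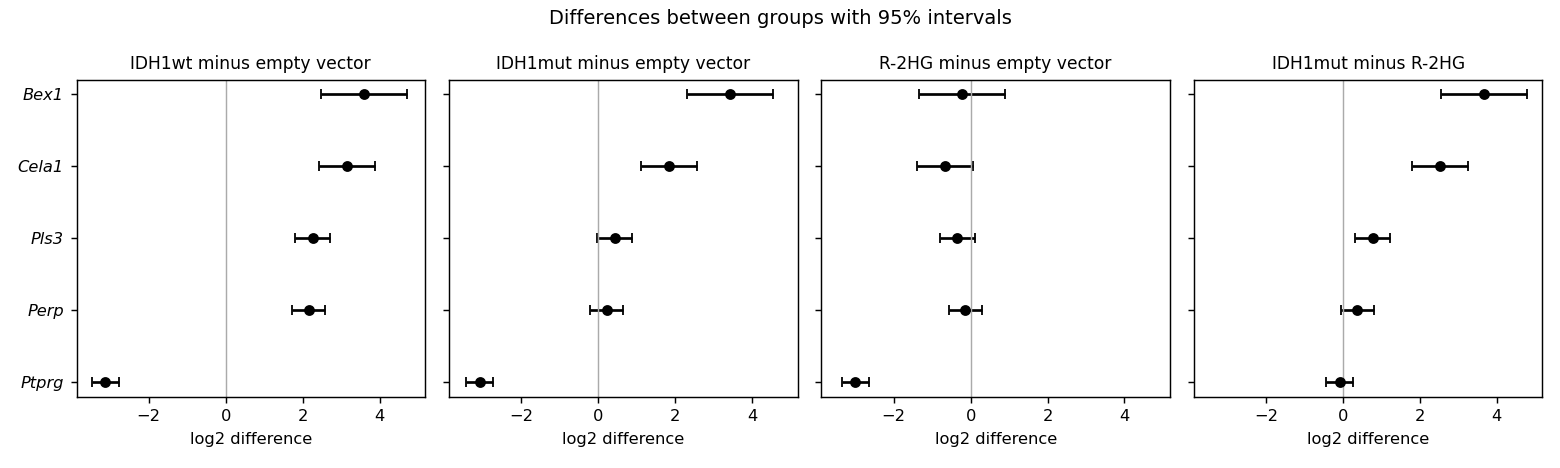
Log2 difference (x axis) of each gene (y axis) in 4 comparisons, first-named group minus second. Points are differences from the fit and bars are 95% intervals, n = 3 arrays per group. The genes were chosen on IDH1wt minus empty vector, the first 3 panels share the empty vector arrays, and IDH1mut minus R-2HG was tested, with Bex1 (not with a trend), Cela1 and Pls3 higher.

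The R-2HG mean lay below the empty vector mean for each of the 5 genes. Beside that of Ptprg, the differences were −0.23 ± 0.51 for Bex1, −0.67 ± 0.33 for Cela1, −0.35 ± 0.21 for Pls3 and −0.14 ± 0.20 for Perp. Each of these 4 intervals included 0, and the R-2HG and empty vector arrays overlapped for each of these genes. Without R-2HG replicates 1 and 2, Cela1 differed by 0.008 and Perp by 0.43.

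Markers of cell types that marrow can hold were compared in IDH1wt and empty vector. In 10 lists, from erythroid to stromal, endothelial and epithelial, limma called 0 of 122 entries, and 15 had an unadjusted p under 0.05. Of all genes 1.35% were called in this comparison, so a count of 0 is close to that share. The array medians of the last list, which holds tissues where Pls3 and Perp are usual, stayed between −0.08 and 0.10 on all 12 arrays.

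In the family of Bex1, 6 of 13 listed BEX and TCEAL genes were measured, and the family did not move as a block. Only Tceal8 of the 6 passed in IDH1wt over empty vector, where 1.35% of all genes were called. This gene, which encodes a protein related to transcription elongation factor A, rose by 1.91 ± 0.35 (limma, adjusted p = 0.02038). It measured 2.62, 1.31 and 1.90 on the IDH1wt arrays, 0, 1.50 and 0.83 on the IDH1mut arrays, −1.36, −1.25 and −1.19 on the R-2HG arrays, and −0.23, 0 and 0.32 on the empty vector arrays. Tceal8 was also lower in R-2HG than in empty vector (−1.30 ± 0.35, limma, adjusted p = 0.01191). Its call in IDH1wt was lost in 6 of 18 alternatives, with adjusted p between 0.00512 and 0.08756 over all of them. Those 6 were the replicate block, each empty vector array left out, and IDH1wt replicate 1 or 3 left out.

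Bex4, a relative of Bex1 with the sixth widest gap between construct and other arrays of all genes (0.85), measured 1.02, 0.92 and 1.23 on the IDH1wt arrays, 0.87, 2.59 and 1.12 on the IDH1mut arrays, −0.39, −0.32 and −0.34 on the R-2HG arrays, and 0, 0.02 and −0.29 on the empty vector arrays. As for Bex1, the IDH1wt and IDH1mut arrays overlapped and all 6 lay above the others. Limma called Bex4 in IDH1mut over empty vector (1.62 ± 0.32, adjusted p = 0.004003). It did not pass in IDH1wt over empty vector (1.15 ± 0.32, adjusted p = 0.1061), although it was at 0.0004737 when IDH1mut replicate 2 was left out, within a range up to 0.3028. Bex6 went the other way, lower in IDH1mut than in empty vector by limma (−0.88 ± 0.11, adjusted p = 0.0001725).

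Between IDH1mut and R-2HG, 4 of the 6 family members were higher, namely Tceal8, Bex4, Bex3 and Tceal9, and 0 lower, with a median of 0.80, where 20.3% of all genes were higher and their median was −0.004. In R-2HG against empty vector 4 of 6 were lower and 0 higher, where 40.8% of all genes were called in either direction. The median of the 6 was −0.58, −0.51 and −0.29 on R-2HG replicates 1, 2 and 3, against 0, 0.17 and 0.26 on the empty vector arrays. Without R-2HG replicates 1 and 2, the IDH1mut minus R-2HG difference was 1.86 for Bex4 and 1.96 for Tceal8, against 1.88 and 2.04 with all arrays. Bex3 then differed by only 0.31 and Tceal9 by only 0.25, against 1.08 and 0.53. These sizes rest on R-2HG replicate 3 alone, so they do not show that any of the 4 calls held. Bex4, Bex3 and Tceal8 lie on chromosome X like Bex1, and Bex6 lies on chromosome 16.

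In IDH1wt over empty vector, where 1.35% of all genes were called, 1 gene was called in each of the families of Pls3 and Perp. Of 16 measured plastins and other actin bundlers, Fscn1, which encodes fascin, was the only one called in IDH1wt over empty vector (0.45 ± 0.09, limma, adjusted p = 0.03659). Lcp1, the plastin of blood cells, measured −0.06, 0.04 and −0.07 on the IDH1wt arrays, 0.27, 0.26 and 0.27 on the IDH1mut arrays, 0.20, 0.13 and 0.11 on the R-2HG arrays, and −0.10, −0.20 and −0.28 on the empty vector arrays. It rose in IDH1mut over empty vector by 0.46 ± 0.07 (limma, adjusted p = 0.0005945), while in IDH1wt the difference was 0.16 ± 0.07 (adjusted p = 0.2731). The order of Lcp1 over the groups was thus not that of Pls3. In IDH1mut over empty vector the actin-binding genes Coro1a (0.70 ± 0.07) and Actn1 (0.41 ± 0.08) were higher too and Actn4 (−0.26 ± 0.09) was lower, 4 of 16 where 22.6% of all genes were called. In R-2HG over empty vector 4 were higher and 3 lower, where 40.8% were called. The list median on R-2HG replicates 1, 2 and 3 was 0.03, 0.11 and −0.01, against −0.04 to 0 on the empty vector arrays. Pls1, the plastin of epithelial brush borders, passed in no comparison.

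Among 13 measured relatives of Perp with 4 membrane passes, Tmem47, a claudin-like protein of cell junctions, was the one called in IDH1wt over empty vector. It measured 1.19, 1.05 and 1.19 on the IDH1wt arrays, 0.06, 0.08 and 0.17 on the IDH1mut arrays, −0.09, 0.06 and 0 on the R-2HG arrays, and −0.15, −0.14 and −0.16 on the empty vector arrays. It was higher by 1.29 ± 0.07 in IDH1wt than in empty vector (limma, adjusted p = 2.339e-06) and lower by 1.04 ± 0.07 in IDH1mut than in IDH1wt (limma, −1.04, adjusted p = 1.164e-05), where 15.7% of all genes were called. These calls held in all 18 alternatives run for each. Its gap of 0.88 over the other 9 arrays was the third widest of all genes, after Perp and Pls3. Emp1, of the PMP22 family that gave Perp its name, was higher in IDH1mut than in empty vector (0.47 ± 0.15, limma, adjusted p = 0.03653), with overlapping arrays, and differed by −0.06 ± 0.15 in IDH1wt. Of the 13 relatives, 2 were higher and 1 lower in IDH1mut than in empty vector, where 22.6% of all genes were called.

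**Figure D5:**
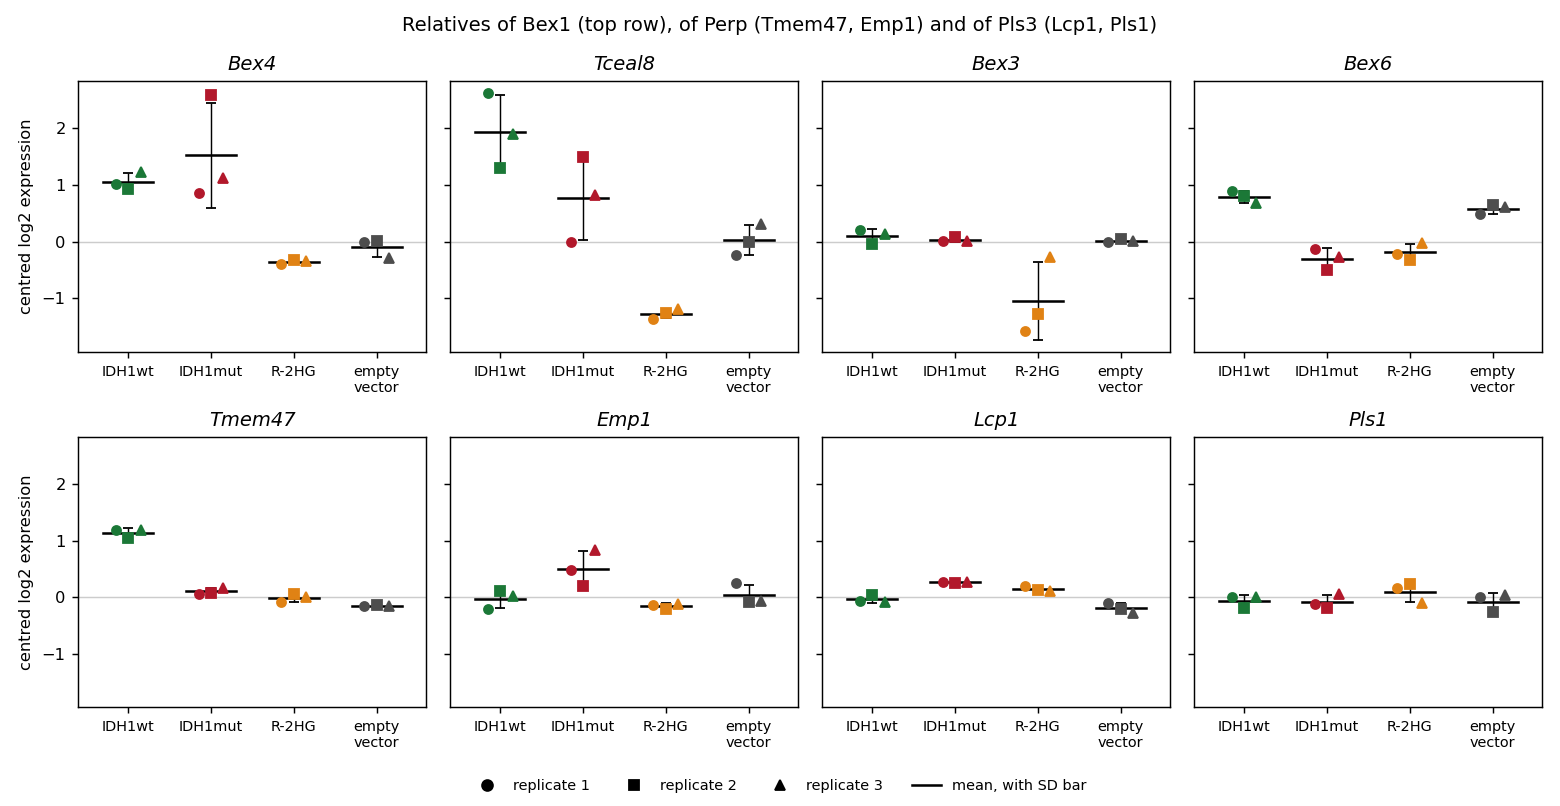
Centred log2 expression (y axis) by group (x axis) of relatives of Bex1 (Bex4, Tceal8, Bex3, Bex6), Perp (Tmem47, Emp1) and Pls3 (Lcp1, Pls1). Symbols are replicates, lines are means and bars are SDs, n = 3. Tmem47 is high on the 3 IDH1wt arrays, Bex4 on all 6 construct arrays, and Lcp1 is highest on the IDH1mut arrays.

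Perp is a p53 target, and the p53 pathway was measured at 27 of 31 listed genes. In IDH1wt over empty vector, where 1.35% of all genes were called, limma called Trp53inp1, which encodes a stress-induced p53 cofactor (0.33 ± 0.07, adjusted p = 0.03211), and no other gene of the list. In IDH1mut against empty vector, where 22.6% of all genes were called, 10 were higher and 3 lower, among them the death receptor gene Fas (0.96 ± 0.08, adjusted p = 2.362e-05) and the tumour suppressor Cdkn2a (−2.37 ± 0.21, adjusted p = 2.552e-05, limma).

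Of 20 listed digestive enzymes related to Cela1 by tissue, 9 were measured. Limma called 0 in IDH1wt against empty vector, with 0 at an unadjusted p under 0.05. Of all genes 1.35% were called there, so a count of 0 is close to that share. In IDH1mut against empty vector, where 22.6% of all genes were called, limma called 0, with 2 at an unadjusted p under 0.05. In IDH1mut against R-2HG, where 36% of all genes were called in either direction, 6 of the 9 were lower and 0 higher. An example is Ctrb1, which encodes chymotrypsinogen B (−0.54 ± 0.12, limma, adjusted p = 0.006295). The median of the 9 was 0.29, 0.20 and 0.17 on R-2HG replicates 1, 2 and 3, and −0.09, −0.16 and −0.18 on the IDH1mut arrays. Of 11 measured serine proteases of blood cell granules and their inhibitors, limma called 0 in IDH1wt against empty vector, again close to 1.35%. Of these 11, 3 had an unadjusted p under 0.05. Neutrophil elastase (Elane) was lower in IDH1mut than in empty vector by limma (−1.10 ± 0.13, adjusted p = 0.0001441).

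For Ptprg, 15 of 20 other receptor-type phosphatases were measured. Limma called 0 of them in IDH1wt against empty vector, close to the 1.35% of all genes called, with 5 at an unadjusted p under 0.05. In R-2HG against empty vector 4 of 15 were higher and 0 lower, where 40.8% of all genes were called in either direction. The smallest p was that of Ptprj (1.07 ± 0.16, limma, adjusted p = 0.0004848). Ptprj measured 0.89, 0.83 and 0.25 on R-2HG replicates 1, 2 and 3, against −0.28, −0.53 and −0.43 on the empty vector arrays. Its size thus leans on R-2HG replicates 1 and 2. In R-2HG against IDH1wt 7 of 15 were higher and 0 lower, where 44.4% of all genes were called in either direction. The median of the 15 was 0.11, 0.14 and 0.11 on R-2HG replicates 1, 2 and 3. It was 0, −0.10 and −0.04 on the empty vector arrays, and −0.03, −0.10 and −0.02 on the IDH1wt arrays. Contactins, ligands of the Ptprg protein, were measured at 3 of 6 listed genes. Limma called 0 against empty vector in IDH1wt, IDH1mut or R-2HG, where 1.35%, 22.6% and 40.8% of all genes were called. In IDH1wt 1 of them had an unadjusted p under 0.05.

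Genes with the most similar profiles were found by Pearson correlation over the 12 arrays among 2207 genes with a range of at least 1 log2 unit. The 12 arrays fall into 4 groups, so a shared group pattern is what such a correlation mostly measures. Closest to Bex1 were Ppic (r = 0.979), Arhgap5 (0.955) and Erdr1 (0.953). Ppic, which encodes a cyclophilin, measured 1.96, 0.83 and 1.50 in IDH1wt, 0.74, 1.50 and 1.29 in IDH1mut, −0.18, −0.09 and −0.33 in R-2HG, and 0.09, 0 and −0.05 in empty vector. It shared with Bex1 the low IDH1wt replicate 2 and the high IDH1mut replicate 2.

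Closest to Cela1 were Tmem267 (r = 0.958), Lrmda (0.948) and Polr3g (0.939), and closest to Pls3 were Zc2hc1a (0.950), Colec12 (0.947) and Tmem47 (0.945). Perp shared Zc2hc1a (0.967) and Tmem47 (0.953) with Pls3, followed by Plcb3 (0.941). Closest to Ptprg were Eya1 (0.970), Gstt2 (0.951) and Zfp979 (0.932). Eya1, which encodes a phosphatase and transcriptional coactivator, measured −0.34, −0.31 and −0.29 in IDH1wt, −0.31, 0.07 and −0.18 in IDH1mut, −0.48, −0.28 and 0.21 in R-2HG, and 1.30, 1.52 and 1.63 in empty vector. Its empty vector arrays were clear of the other 9, as for Ptprg.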

How the data were processed

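Per the submitters' processing notes, the authors made the deposited log2 values with RMA, whose version is not given in the sources used here. The values are centred per probe set, with 83.6% of probe sets holding an exact 0; the reference of the centring is not given in the sources used here. Of 32533 probe sets, 28805 have a single gene symbol in the platform annotation, and their mean per gene gave 15858 genes. All 12 arrays were fitted with lmFit and eBayes of limma 3.58.1 (R 4.3.3), with 1 coefficient per group, which gave differences, SEs and two-sided p-values with Benjamini-Hochberg adjustment over all genes, at a threshold of 0.05, and was tested on simulated data. The genes described and the related lists were chosen with earlier results of these data known. Besides the 5 genes, the text names genes called in a related list, at most the 4 with the smallest p per comparison, and the 3 most correlated genes for each; others are marked or were needed for a pattern. No depth applies to arrays, and 3 arrays per group limit the precision. Counts at an unadjusted p under 0.05 are given without the share of all genes at that level. Replicate numbers were not taken as pairs: 1 of 18 same-number correlations of deviations exceeded 0.1 (−0.15 to 0.12). Alternatives were single probe sets, the probe set with the highest SD, a second quantile normalization, centring of arrays, eBayes with trend, array weights, a replicate block, 6 arrays only, an SD filter at the 30th percentile, and arrays left out. Figures were drawn with matplotlib 3.10.9.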

Additional observations from a re-analysis of the deposited data

How the results depend on the processing

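For IDH1mut minus R-2HG, Bex1 was 3.65 with eBayes trend but no longer passed (adjusted p = 0.8999, against 0.0001018 to 0.0456 in its other alternatives); the trend is fitted on centred values, which carry no level, and the cause was not tested. Cela1 was 1.84 without R-2HG replicates 1 and 2 and no longer passed (adjusted p = 0.05054). Pls3 ranged from 0.61 to 0.89 leaving out 1 array, no longer passing without IDH1mut replicate 2, R-2HG replicate 1 or R-2HG replicate 2 (adjusted p = 0.05122 to 0.06132), and was 0.54 without both R-2HG arrays. Perp passed with array weights (0.60, adjusted p = 0.004873) and when R-2HG replicate 3 was left out (0.65, adjusted p = 0.00245), ranged from 0.21 to 0.65 leaving out 1 array, and was −0.20 without R-2HG replicates 1 and 2. Ptprg was 0.12 at probe set 1429691_at. Limma called 3 of the 5 genes in the main analysis, 2 to 4 leaving out 1 array and 1 without R-2HG replicates 1 and 2. Genes called overall were 5714, 3109 to 6503 leaving out 1 array, lowest without R-2HG replicate 2 (3109) and replicate 1 (3376), and 336 without both. For IDH1wt minus empty vector, Perp was 2.35 after quantile normalization, and Ptprg was −3.46, −4.62, −1.96 and −2.45 at its 4 probe sets, the second of these being the one with the highest SD. With the replicate block, limma called 5346 genes and the same 3 of the 5, with adjusted p of 0.003046 for Bex1, 0.002069 for Cela1 and 0.02597 for Pls3. Signal over background could not be assessed from centred values, so a dim probe set cannot be told from a bright one.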

Other observations

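Bex1 and Pls3 are X-linked, and so are Bex4, Bex3, Tceal8 and Tmem47 among the genes related to them or similar in profile, whereas Bex6 lies on chromosome 16 and Zc2hc1a, the gene most similar to Pls3 and Perp, on chromosome 3. Also X-linked is Gspt2, which had the fourth widest gap for IDH1wt over all other arrays and was named after its values were seen. Gspt2, which encodes a translation termination factor, measured 1.89, 1.07 and 1.62 in IDH1wt, −0.22, 0.007 and 0 in IDH1mut, 0.22, −0.25 and −0.47 in R-2HG, and −0.10, −0.28 and −0.07 in empty vector. Among genes for which all 3 IDH1wt arrays lay above the other 9, 14 of 349 placed on a chromosome were X-linked (4.01%). Among genes for which the 6 construct arrays lay above the other 6 it was 14 of 238 (5.88%), among those for which the 3 empty vector arrays lay above the other 9 it was 17 of 751 (2.26%), and among all genes 485 of 15829 (3.06%). These shares were not tested.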
